A study of Mus musculus with 18 samples.

Results

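The brown fat transcriptional regulators described here were 9 genes, Prdm16, Ebf2, Zfp516, Ppargc1a, Ppargc1b, Ppara, Esrra, Esrrg and Irf4, chosen by their gene symbol from the 54347 rows of a table of estimated counts per gene. Each symbol matched 1 row, and all 9 genes were among the 18728 genes tested. Polyadenylated RNA had been sequenced from 3 fat depots of 12-week-old mice on the C57BL/6N background: the brown fat between the shoulder blades (iBAT), the white fat of the groin (iWAT) and the white fat beside the epididymis (eWAT). In each depot, 3 knockout mice with a CRISPR/Cas9 deletion that includes exon 1 of the long noncoding RNA gene Gm15551 (ko) were set beside 3 wild type mice (wt). The study's methods state a chow diet for the mice of this line used for transcriptomes. Its results instead describe adipose transcriptomes from mice on high-fat and control diets. The library titles name no diet. The ko line had been backcrossed to wild type animals. The same 6 mice gave all 3 depots, so that the 18 libraries formed 6 groups of 3.

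Brown adipocytes burn fatty acids in their abundant mitochondria and release the energy as heat through uncoupling protein 1 (UCP1). PRDM16, EBF2 and ZFP516 are DNA-binding or DNA-associated factors that set brown identity in precursors and keep it in mature cells. PGC-1α and PGC-1β, encoded by Ppargc1a and Ppargc1b, are coactivators without DNA binding of their own, which act through nuclear receptors such as PPARα (Ppara) and the oestrogen-related receptors ERRα (Esrra) and ERRγ (Esrrg) on genes of fatty acid oxidation and respiration. IRF4 is an interferon regulatory factor that partners PGC-1α in adipocytes and is also a regulator of lymphocytes.

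Promoter sequences are shown for Ppargc1a and Irf4, the members with the largest standard deviations of log2 CPM within iBAT, and for Esrra, the member with the smallest one there. The windows come from RefSeq (GRCm38.p6), are trimmed to the bases upstream of the gene's outermost GENCODE start, and are read 5′ to 3′ along the gene. They lay directly upstream of the genes and overlapped no other GENCODE gene. Capitals mark the letters of motifs searched on both strands. In Ppargc1a these are GAAANNGAA, an interferon response element, and CGTCA, the reverse complement of TGACG, which is the first part of a cAMP response element. In Esrra they are GCATGCGC, a site of nuclear respiratory factor 1 (NRF1), and in Irf4 TATAAA, the core promoter element bound by the TATA-binding protein.
Ppargc1a, chr5:51567727-51567975, minus strand: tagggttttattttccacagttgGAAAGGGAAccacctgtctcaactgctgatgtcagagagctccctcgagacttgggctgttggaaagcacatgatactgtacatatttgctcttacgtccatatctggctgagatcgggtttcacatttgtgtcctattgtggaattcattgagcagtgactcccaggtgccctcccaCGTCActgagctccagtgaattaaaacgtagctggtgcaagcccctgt
Esrra, chr19:6921814-6922058, minus strand: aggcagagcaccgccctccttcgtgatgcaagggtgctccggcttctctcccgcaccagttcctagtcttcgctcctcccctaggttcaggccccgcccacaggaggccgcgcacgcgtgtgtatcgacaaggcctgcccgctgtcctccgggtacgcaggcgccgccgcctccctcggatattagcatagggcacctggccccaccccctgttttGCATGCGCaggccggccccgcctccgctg
Irf4, chr13:30748983-30749225, plus strand: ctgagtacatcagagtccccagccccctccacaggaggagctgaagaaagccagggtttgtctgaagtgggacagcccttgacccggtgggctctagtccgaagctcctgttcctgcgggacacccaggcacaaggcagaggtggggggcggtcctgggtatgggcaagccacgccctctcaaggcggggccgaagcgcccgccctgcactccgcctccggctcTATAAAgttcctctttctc

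Counted from the RefSeq start, the capitals began at positions -227 and -49 in Ppargc1a, -34 in Esrra and -26 in Irf4. Windows of 250 bases before and 50 after a start were found for 6 of the 9 genes, 9 windows in all, 4 of them of Esrrg. NRF1 letters stood in 2 of these 9 windows (Esrra and Ppara) against 2.71% of 32817 mouse windows. The letters TGACG stood in 2 windows (Ppargc1a and Ppara) against 20.8% of all windows, and TATAAA in 2 (Irf4 and 1 of Esrrg) against 13.6%. The letters GAAANNGAA stood in 1 window against 8.55%, and CCCNNGGG, the core bound by EBF factors, in 1 (Ppara) against 13.7%. Neither AAGGTCA, the letters bound by the oestrogen-related receptors and held by 4.72% of windows, nor the whole element TGACGTCA (1.79%), which contains TGACG, occurred in the 9 windows. The GC content of the printed windows was 48.2% in Ppargc1a, 68.6% in Esrra and 63.8% in Irf4.

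Total estimated counts ranged from 14997901 to 34389586 per library, and a count of 0 allows up to 3 counts, 0.0728 to 0.235 CPM by library, a limit for counting error only. CPM is a gene's count relative to the total of its library, here after scaling that total by the trimmed mean of M values. The summed CPM of 5 brown adipocyte markers ranged over 7560 to 12500 among the iBAT libraries, 43 to 410 among those of iWAT and 6.09 to 26.4 among those of eWAT, with no marker at 0 throughout a depot. Some libraries carried transcripts of other tissues. In iWAT wt 3 and ko 2, 9 lymphocyte markers summed to 1490 and 657 CPM against 71.7 to 180 in the other iWAT libraries, and 5 adipocyte markers to 7171 and 10380 against 18220 to 20720. Skeletal muscle markers (10 genes) summed to 4680 CPM in iWAT ko 1 and 4.08 to 7.05 in the other iWAT libraries. Epididymis markers (6 genes) summed to 4820 CPM in eWAT ko 3 and 16.4 in eWAT wt 1 against 0.0858 to 2.62 in the other eWAT libraries. In bulk tissue, fewer cells of a type and less RNA per cell cannot be told apart.

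The regulators as a group were brown-biased. Between iBAT and iWAT, 7 of the 9 rose in iBAT and none fell (edgeR's quasi-likelihood test, adjusted p under 0.05 over all genes tested), beside 24% of all genes called higher and 30.3% called lower, 54.3% in all. Between iBAT and eWAT all 9 differed, 8 of them higher and Zfp516 lower in iBAT, beside 24.4% and 30.2% of all genes, 54.6% in all. The 6 iBAT libraries did not overlap the 6 iWAT libraries for 6 members and the 6 eWAT libraries for 8 members, where 34.6% and 37.3% of all genes did not overlap. The median log2 fold change of the 9 members was 2.22 against iWAT and 2.47 against eWAT, beside -0.15 and -0.17 over all genes. Both comparisons share the iBAT libraries. The white depots differed less, with Prdm16 and Irf4 higher in iWAT than in eWAT, beside 5.7% of all genes called higher and 10.2% called in either direction. No member had white depots that did not overlap (4.62% of all genes), and the members' median log2 fold change there was 0.31.

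**Figure D1:**
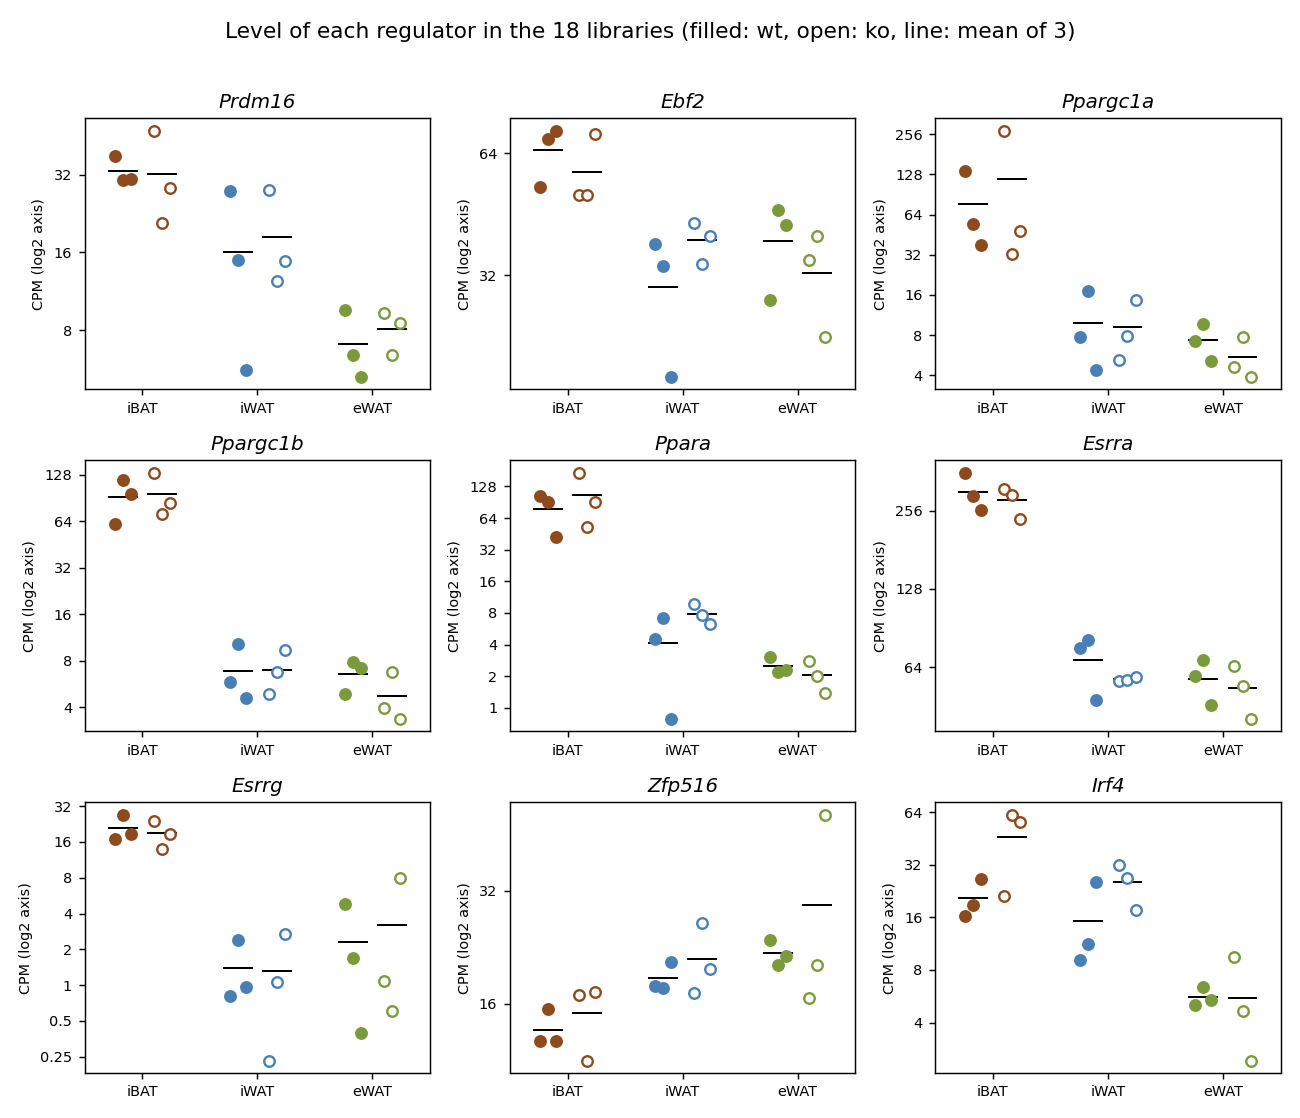
Level of each of the 9 regulators in CPM on a log2 axis, with 1 point per library (filled wt, open ko) and a line at the mean of each group of 3. In iBAT, Ebf2, Ppargc1a, Ppargc1b, Ppara, Esrra and Esrrg lay above every white fat library, whereas 4 of the 6 iBAT libraries lay below every white fat library for Zfp516.

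Prdm16, the zinc finger factor that steers precursors to the brown fate (chr4:154316125-154636873, minus strand, GRCm38), fell in steps from iBAT over iWAT to eWAT. In iBAT its level was 37.8, 30.7 and 30.8 CPM in wt 1 to 3 and 47.4, 20.9 and 28.4 CPM in ko 1 to 3. In iWAT it was 27.6, 14.9 and 5.61 CPM in wt and 27.9, 12.5 and 14.8 CPM in ko. In eWAT it was 9.54, 6.41 and 5.29 CPM in wt and 9.31, 6.38 and 8.52 CPM in ko. Both iWAT libraries of the replicate 1 mice lay within the iBAT range, and the library rich in lymphocyte markers, iWAT wt 3, lay within the eWAT range, although in each of the 6 mice iBAT was above iWAT and iWAT above eWAT. The log2 fold change was 2.11 ± 0.32 (SE) for iBAT over eWAT (adjusted p = 3.15e-05), 0.93 ± 0.31 for iBAT over iWAT (adjusted p = 0.0177) and 1.19 ± 0.31 for iWAT over eWAT (adjusted p = 0.0248). With the mouse as a block both smaller differences were called (1.04, adjusted p = 0.000982, and 1.07, 0.00655). Without the block, the iBAT over iWAT call was lost without iBAT ko 1 (log2 fold change 0.80, adjusted p = 0.0526), without both iBAT replicate 1 libraries (0.70, 0.113) and without the iWAT libraries richest in lymphocyte markers (0.61, 0.0638). With wild type libraries alone, Prdm16 kept the call over eWAT but lost that of iBAT over iWAT (1.04, 0.116) and of iWAT over eWAT (1.18, 0.319). The iWAT over eWAT call was also lost without any 1 of 5 libraries, iWAT wt 1, iWAT ko 1, eWAT wt 2, eWAT ko 2 or eWAT wt 3 (adjusted p 0.0522 to 0.058).

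Ebf2, an early B cell factor that opens chromatin at brown fat genes together with PPARγ (chr14:67233292-67430918, plus strand), was moderately higher in iBAT and alike in range in the white depots. Its level in iBAT was 52.9, 69.5 and 72.7 CPM in wt and 50.3, 50.6 and 71.3 CPM in ko. In iWAT it was 38.3, 33.7 and 17.97 CPM in wt and 43.0, 34.2 and 40.1 CPM in ko. In eWAT it was 27.7, 46.2 and 42.6 CPM in wt and 34.8, 39.98 and 22.5 CPM in ko. Every iBAT library lay above every white fat library, and the lowest values were in iWAT wt 3 and eWAT ko 3, the libraries with the highest lymphocyte and epididymis marker sums. The part of those tissues in the values was not tested. Ebf2 rose by 0.82 ± 0.21 on the log2 scale over iWAT (adjusted p = 0.00281) and by 0.78 ± 0.21 over eWAT (adjusted p = 0.00406), while iWAT over eWAT gave -0.05 ± 0.21 (adjusted p = 0.919). With wild type libraries alone the call over eWAT was lost (0.74, adjusted p = 0.075).

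Zfp516, a zinc finger factor known to bind the Ucp1 promoter and to be induced by cold (chr18:82910663-83005314, plus strand), was the one member that was not higher in iBAT than in either white depot. The iBAT libraries held 12.7, 15.5 and 12.7 CPM in wt and 16.8, 11.3 and 17.1 CPM in ko. The iWAT libraries held 17.8, 17.6 and 20.6 CPM in wt and 17.1, 26.3 and 19.9 CPM in ko. The eWAT libraries held 23.7, 20.2 and 21.5 CPM in wt and 16.6, 20.3 and 51.1 CPM in ko. The iBAT values reached the lower edge of the white fat values in ko 1 and ko 3 only, and the highest of all 18 values was in the library with the epididymis markers, eWAT ko 3. In iBAT Zfp516 fell by 0.82 ± 0.22 on the log2 scale against eWAT (adjusted p = 0.00463), and it was still lower without eWAT ko 3, with a log2 fold change of -0.52. Against iWAT the log2 fold change was -0.47 ± 0.22 (adjusted p = 0.0806). That difference passed the threshold without eWAT ko 3 (-0.46, adjusted p = 0.00758), with wild type libraries alone (-0.46, 0.0354) and with a minimum of 10 counts in every library (-0.57, 0.0403).

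How far the smaller differences go depends on the scale. Scaling factors ran from 0.617 to 0.744 for the iBAT libraries and from 1.06 to 1.44 for white fat, and with plain library totals the median over all genes moved by -0.81 on the log2 scale for iBAT over iWAT and by -0.87 for iBAT over eWAT. The share of genes called higher in iBAT was then 7.68% and lower 68.4% against iWAT, and 8.43% and 70.3% against eWAT. On plain totals the log2 fold change of Prdm16 and Ebf2 over iWAT was 0.16 and 0.06 (adjusted p = 0.609 and 0.784), that of Ebf2 over eWAT -0.06 (0.777), that of Irf4 over iWAT -0.15 (0.713), and that of Zfp516 -1.29 over iWAT and -1.72 over eWAT. The coactivators and nuclear receptors stayed called under plain totals, with log2 fold changes of 1.42 to 4.40. Subtracting the median over all genes removes this shift by construction, and relative to it 8 of the 9 members were above and Zfp516 below in both iBAT contrasts.

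**Figure D2:**
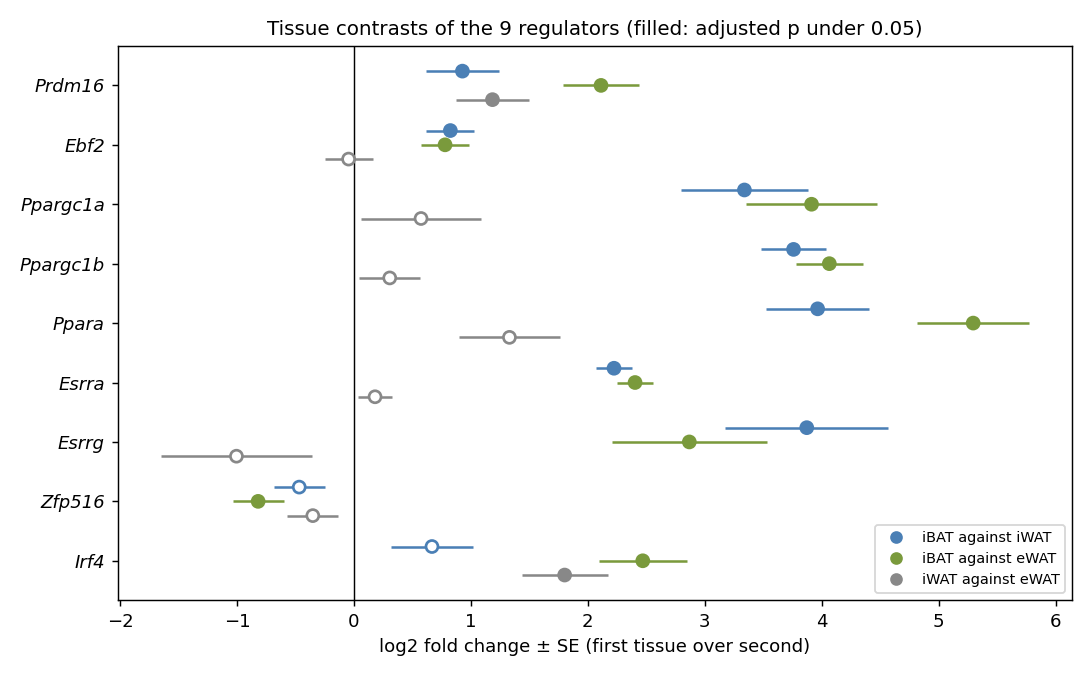
Log2 fold changes with standard errors of the 9 regulators between depots, filled where the adjusted p was under 0.05. The coactivators and nuclear receptors lay between 2.22 and 5.30 in both iBAT contrasts, Irf4 at 0.67 over iWAT and 2.47 over eWAT, and Zfp516 lay below 0 in all 3 contrasts.

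Ppargc1a, the cold-inducible coactivator of mitochondrial genes (chr5:51454250-51567726, minus strand), was higher in every iBAT library than in any white fat library and spread widely among the iBAT libraries. In iBAT its level was 136.7, 54.1 and 37.8 CPM in wt and 272 CPM, 32.2 CPM and 48.6 CPM in ko 1 to 3. In iWAT it was 7.79, 17.2 and 4.39 CPM in wt and 5.18, 7.91 and 14.7 CPM in ko. In eWAT it was 7.17, 9.66 and 5.09 CPM in wt and 4.59, 7.81 and 3.91 CPM in ko. Both replicate 1 mice, 1 of each genotype, stood above the other 4 mice in iBAT. The highest iBAT library was 8.46 times the lowest, and the standard deviation of log2 CPM, 1.20, was at the 96.9th percentile of all genes tested in iBAT. Ppargc1a rose by 3.34 ± 0.54 on the log2 scale over iWAT (adjusted p = 7.66e-05) and by 3.91 ± 0.56 over eWAT (adjusted p = 1.79e-05). Without iBAT ko 1 these values were 2.61 and 3.21, and without both replicate 1 libraries 2.19 and 2.77, each still called.

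Ppargc1b, the related coactivator whose gene carries the microRNA gene Mir378a in an intron (chr18:61298136-61400431, minus strand), had a similar tissue difference with less spread. Levels in iBAT were 62.0, 118.8 and 95.8 CPM in wt and 132.2, 71.3 and 84.1 CPM in ko. Levels in iWAT were 5.81, 10.3 and 4.58 CPM in wt and 4.83, 6.76 and 9.43 CPM in ko. Levels in eWAT were 4.84, 7.81 and 7.11 CPM in wt and 3.95, 6.77 and 3.37 CPM in ko. The highest iBAT library was 2.13 times the lowest, and iBAT wt 1, the second highest for Ppargc1a, was the lowest for Ppargc1b. Ppargc1b rose by 3.76 ± 0.28 on the log2 scale over iWAT (adjusted p = 1.58e-08) and by 4.07 ± 0.29 over eWAT (adjusted p = 4.92e-09). In iWAT, both coactivators and Esrrg were highest in wt 2 and ko 3, the libraries with the highest brown adipocyte marker sums (410 and 391 CPM against 43 to 212) and the highest Ucp1 (55.3 and 18.5 CPM).

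Ppara, the nuclear receptor that fatty acids activate to induce their own oxidation (chr15:85734983-85802819, plus strand), showed the largest tissue difference among the 9 genes. In iBAT its level was 103.5, 90.4 and 42.0 CPM in wt and 172.8, 53.1 and 90.7 CPM in ko. In iWAT it was 4.55, 7.16 and 0.791 CPM in wt and 9.67, 7.66 and 6.31 CPM in ko. In eWAT it was 3.08, 2.18 and 2.27 CPM in wt and 2.79, 2.01 and 1.39 CPM in ko. All but 1 of the iWAT libraries lay above all eWAT libraries, and the exception, iWAT wt 3 with the highest lymphocyte and lowest adipocyte marker sums, was the lowest of the 18. Ppara rose by 3.97 ± 0.44 on the log2 scale over iWAT (adjusted p = 1.35e-06) and by 5.30 ± 0.48 over eWAT (adjusted p = 8.84e-08). For iWAT over eWAT the log2 fold change was 1.33 ± 0.43 (adjusted p = 0.058), which passed the threshold without iWAT wt 3 (1.59, adjusted p = 0.00591) and with DESeq2 (1.33, 0.0145). With wild type libraries alone it was 0.72 (adjusted p = 0.644).

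Esrra, the receptor through which PGC-1α acts on respiratory genes (chr19:6910977-6921813, minus strand), had the smallest standard deviation of log2 CPM among the 9 genes in iBAT and eWAT, and the second smallest in iWAT after Zfp516. The iBAT libraries held 359.3, 292.7 and 258.7 CPM in wt and 311.3, 295.1 and 239.1 CPM in ko. The iWAT libraries held 76.0, 81.4 and 47.6 CPM in wt and 56.7, 56.9 and 58.5 CPM in ko. The eWAT libraries held 58.9, 67.9 and 45.5 CPM in wt and 64.5, 54.3 and 40.5 CPM in ko. The highest library was 1.5, 1.71 and 1.68 times the lowest in iBAT, iWAT and eWAT, and the ranges of the white depots overlapped. Esrra rose by 2.22 ± 0.15 on the log2 scale over iWAT (adjusted p = 6.82e-09) and by 2.40 ± 0.15 over eWAT (adjusted p = 1.86e-09), the smallest adjusted p-values of the 9 genes.

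Esrrg, the oestrogen-related receptor enriched in highly oxidative tissues (chr1:187608791-188214885, plus strand), was scarce in white fat. In iBAT its level was 17.0, 27.1 and 18.6 CPM in wt and 24.0, 14.1 and 18.8 CPM in ko. In iWAT it was 0.812, 2.39 and 0.956 CPM in wt and 0.232, 1.07 and 2.68 CPM in ko. In eWAT it was 4.79, 1.70 and 0.395 CPM in wt and 1.07, 0.607 and 7.97 CPM in ko. The highest eWAT values were in ko 3 and wt 1, the libraries with the highest epididymis marker sums, and the lowest white fat values rested on 6 counts in iWAT ko 1 and 8 counts in eWAT wt 3. Esrrg rose by 3.87 ± 0.70 on the log2 scale over iWAT (adjusted p = 0.000188) and by 2.87 ± 0.67 over eWAT (adjusted p = 0.00159). Without the library eWAT ko 3 the difference from eWAT was 3.66, and without eWAT ko 3 and wt 1 it was 4.41 (adjusted p = 1.66e-05). For iWAT over eWAT the log2 fold change was -1.004 ± 0.645 (adjusted p = 0.352), and it turned to 0.54 (adjusted p = 0.579) without those 2 eWAT libraries.

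Irf4 (chr13:30749226-30766976, plus strand) was high in iBAT and iWAT and low in eWAT. Levels in iBAT were 16.3, 18.9 and 26.4 CPM in wt and 21.2, 61.8 and 56.1 CPM in ko. Levels in iWAT were 9.09, 11.3 and 25.6 CPM in wt and 31.9, 26.9 and 17.7 CPM in ko. Levels in eWAT were 5.01, 6.36 and 5.38 CPM in wt and 9.48, 4.66 and 2.43 CPM in ko. All iBAT libraries lay above all eWAT libraries, whereas iWAT overlapped both. Irf4 rose by 2.47 ± 0.38 on the log2 scale in iBAT over eWAT (adjusted p = 3.39e-05) and by 1.80 ± 0.37 in iWAT over eWAT (adjusted p = 0.0055), while iBAT over iWAT gave 0.67 ± 0.35 (adjusted p = 0.12). The iWAT libraries above 25 CPM were ko 1, richest in muscle markers, and ko 2 and wt 3, richest in lymphocyte markers. These libraries also had the highest sums of 5 macrophage markers in iWAT, 541.8, 1345 and 1437 CPM against 231.6 to 313.4 CPM. Their sums of 5 progenitor markers were the highest too, 827.4, 703.6 and 403.5 CPM against 304.2 to 372.1 CPM. Without these 3 libraries and the eWAT libraries richest in epididymis markers, iWAT over eWAT was 1.07 (adjusted p = 0.0808) and iBAT over iWAT 1.21 (adjusted p = 0.00983). Among the eWAT libraries, Irf4 was highest in ko 1, where the lymphocyte marker sum was also highest (572 CPM). The median lymphocyte marker sum was 269 CPM in eWAT and 179 CPM in iWAT. The part of those cells was not tested. With wild type libraries alone, iWAT over eWAT was 1.47 (adjusted p = 0.133) and iBAT over eWAT 1.88 (adjusted p = 0.00603).

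Levels can be set against each other only per length, as CPM per kilobase of annotated exons. In iBAT, Esrra was the most abundant member at 66.7 ± 9.57 CPM per kilobase (SD, n = 6), and its lowest library, 54.5, lay above the highest library of every other member. Ppara at 24.0 ± 12.1, Ppargc1b at 23.6 ± 6.84 and Ppargc1a at 14.7 ± 14.3 CPM per kilobase overlapped one another. They were followed by Ebf2 at 8.83 ± 1.58, Irf4 at 6.83 ± 4.11, Prdm16 at 3.50 ± 0.97, Esrrg at 3.21 ± 0.77 and Zfp516 at 1.74 ± 0.30 CPM per kilobase. Neighbours in this order overlapped in their ranges of libraries except at its ends, where the lowest Esrrg library, 2.26, lay above the highest Zfp516 library, 2.07. In eWAT the order was different. Esrra was again the highest at 12.6 ± 2.44 CPM per kilobase, Ebf2 came next at 5.15 ± 1.31 and then Zfp516 at 3.09 ± 1.54, while Ppara at 0.596 ± 0.155 and Esrrg at 0.444 ± 0.486 were the lowest. In iWAT the values ran from 14.3 ± 2.96 for Esrra over 4.98 ± 1.28 for Ebf2, 4.16 ± 1.87 for Irf4, 2.40 ± 0.41 for Zfp516, 1.85 ± 0.95 for Prdm16, 1.74 ± 0.60 for Ppargc1b, 1.57 ± 0.80 for Ppara and 1.44 ± 0.79 for Ppargc1a to 0.218 ± 0.155 CPM per kilobase for Esrrg.

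**Figure D3:**
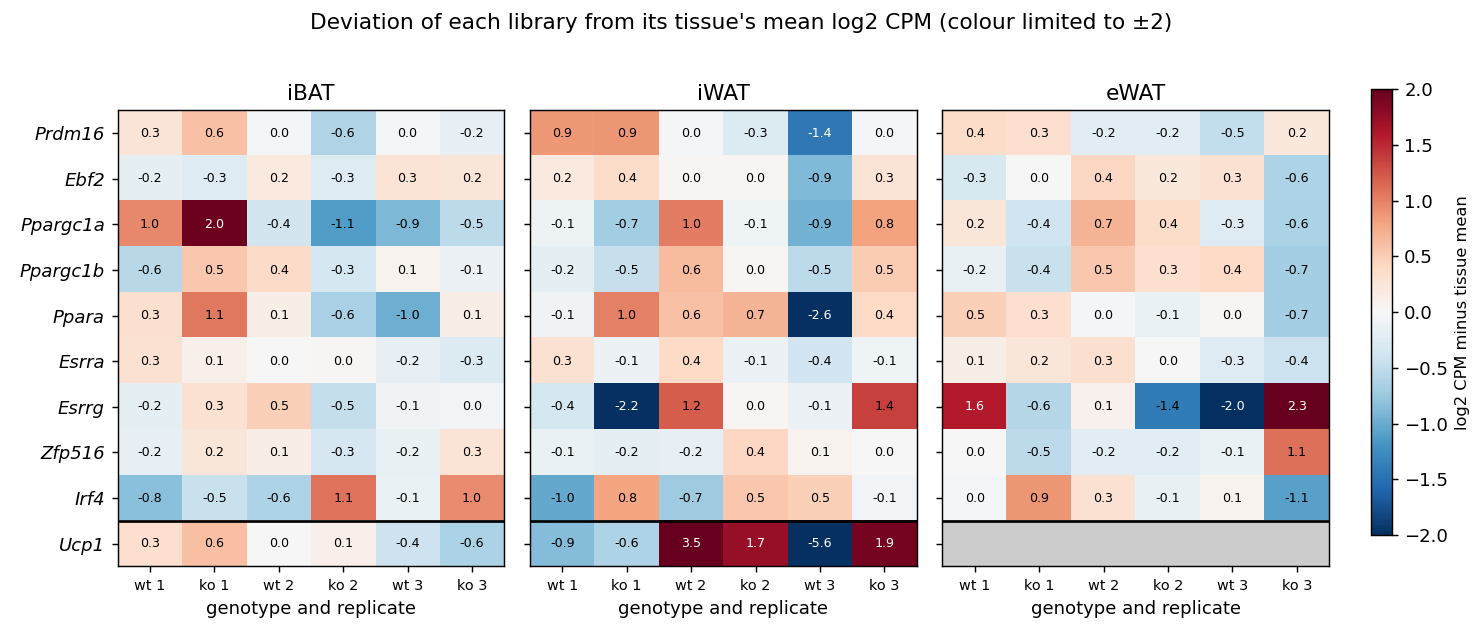
Deviation of each library from the mean log2 CPM of its own depot for the 9 regulators and, below the line, Ucp1 (not drawn in eWAT, where 2 libraries held no Ucp1 count). In iBAT, Ppargc1a was high in wt 1 and ko 1 and Irf4 in ko 2 and ko 3, and in iWAT the lowest Ppara and Ucp1 were in wt 3.

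Within iBAT the members did not vary in step. The ko 1 library held the highest Prdm16, Ppargc1a, Ppargc1b and Ppara, and Ucp1 was also highest there at 7994 CPM, followed by 6665 CPM in wt 1, against 3422 to 5660 in the other 4 libraries. Dio2, the deiodinase that activates thyroid hormone in brown fat, ran at 413 CPM in ko 1 and 236.6 CPM in wt 1, with 264.9 CPM in ko 2 and 46.6 to 122.3 CPM in the other libraries. Irf4 had another order, with its highest values in ko 2 and ko 3, where Ppargc1a was 32.2 and 48.6 CPM. In those 2 libraries the lymphocyte markers summed to 15.3 and 21.3 CPM and the macrophage markers to 77.3 and 95.1 CPM, within the range of the other iBAT libraries (9.32 to 21.3 and 51.3 to 133 CPM). Why the replicate 1 mice stood apart was not tested.

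Genes known as targets of the regulators were mostly higher in iBAT. All 9 brown adipocyte genes of the list chosen for it rose in iBAT over both white depots. Of all genes, 24% were called higher against iWAT and 24.4% against eWAT. The list includes the 5 brown adipocyte markers used above and was chosen with earlier results known. Its count is therefore no independent result. Examples over iWAT are Cox7a1, a brown fat subunit of cytochrome c oxidase (log2 fold change 6.40 ± 0.46), Cidea, a lipid droplet protein (5.10 ± 0.55), and Elovl3, a fatty acid elongase (6.68 ± 0.73). Of these 9 genes, 7 were also higher in iWAT than in eWAT, beside 5.7% of all genes. Of 16 genes regulated by the oestrogen-related receptors and PGC-1, 15 were tested. All 15 rose in iBAT over both white depots, beside 24% and 24.4% of all genes. Their median log2 fold change over iWAT was 2.51, against -0.145 over all genes. The lowest p-values were those of the deacetylase gene Sirt3 (2.65 ± 0.13), Cox5a (3.01 ± 0.19) and Cycs, which encodes cytochrome c (2.67 ± 0.19). Ckmt2, the muscle mitochondrial creatine kinase, was too low to be tested. Between iWAT and eWAT none of the 15 passed the test, although all 15 had log2 fold changes above 0, from 0.12 to 0.84. Of the 15, 6 had an unadjusted p under 0.05, beside 4782 of all 18728 genes.

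Of 17 genes regulated by PPARα, 12 rose in iBAT over iWAT, 2 fell and 3 did not pass. For all genes the shares were 24% higher and 30.3% lower. Over eWAT 13 of the 17 rose and 2 fell, beside 24.4% and 30.2% of all genes. The lowest p-values were those of Cpt1b, the muscle-type carnitine palmitoyltransferase (log2 fold change 6.13 ± 0.38), Hadha, a subunit of the mitochondrial trifunctional protein (3.10 ± 0.22), and Slc25a20, the carnitine carrier (3.30 ± 0.24). Among those that fell was Cpt1a, the liver-type carnitine palmitoyltransferase (-1.60 ± 0.19). Cpt1a averaged 16.2, 49.9 and 71.0 CPM in iBAT, iWAT and eWAT, against 1230, 17.6 and 4.38 CPM for Cpt1b. In iWAT over eWAT 6 of the 17 rose and none fell, beside 5.7% and 4.5% of all genes.

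Genes that maintain and express mitochondrial DNA, with their regulators, gave smaller differences. Of 12, 8 rose in iBAT over iWAT, 2 fell and 2 did not pass, beside 24% of all genes called higher and 30.3% called lower, with a median log2 fold change of 0.62. Gabpa, the DNA-binding subunit of nuclear respiratory factor 2, rose by 1.096 ± 0.076, Tfb2m, a mitochondrial transcription factor, by 1.80 ± 0.14, and Polrmt, the mitochondrial RNA polymerase, by 1.15 ± 0.09. The 2 that fell were Gabpb1, the partner of Gabpa, with a log2 fold change of -0.40 ± 0.12, and Nrf1, nuclear respiratory factor 1, with -0.31 ± 0.11. Against eWAT 8 rose and 1 fell, beside 24.4% and 30.2% of all genes. On plain library totals, where the median of all genes moved alike, 4 rose and 6 fell against either white depot, with medians of -0.19 and -0.13, beside 7.68% and 68.4% of all genes against iWAT and 8.43% and 70.3% against eWAT. The brown adipocyte list kept 9 higher against both depots on plain totals, the list of the oestrogen-related receptors and PGC-1 had 14 and 15 higher, and the PPARα list had 11 higher and 2 lower against both.

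**Figure D4:**
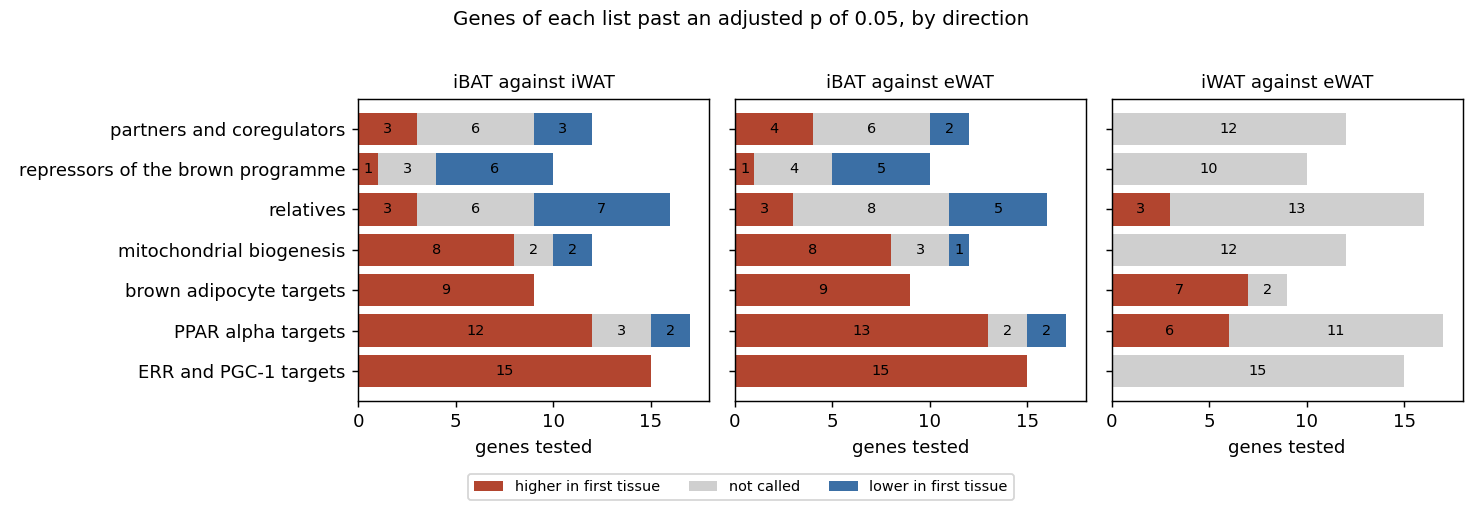
Number of tested genes in each of 7 lists that were higher, lower or not called in each comparison of depots. All 9 brown adipocyte targets and all 15 tested targets of the oestrogen-related receptors and PGC-1 were higher in iBAT, while partners, repressors and relatives moved in both directions.

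Genes that work with or against the regulators were mixed. Of 12 partners and coregulators, 3 rose in iBAT over iWAT, 3 fell and 6 did not pass, with a median of 0.03, counts close to the 24% of all genes called higher and 30.3% called lower. Those that rose were Cebpb, a partner of PRDM16 (2.32 ± 0.29), Dpf3, a chromatin remodelling subunit linked to EBF2 (1.67 ± 0.23), and Ctbp1, a corepressor (0.30 ± 0.07). Those that fell were Rxra, the obligate partner of PPARα (-0.79 ± 0.19), and the acetyltransferase genes Crebbp (-0.34 ± 0.08) and Ep300 (-0.28 ± 0.08). Of 10 repressors of the brown programme, 6 fell, 1 rose and 3 did not pass, with a median of -0.34. The log2 fold change was -2.22 ± 0.22 for Nrip1, the corepressor RIP140, -1.83 ± 0.24 for Rbl1, a relative of the retinoblastoma gene, and -0.89 ± 0.19 for Twist1, which binds PGC-1α, whereas the retinoblastoma gene Rb1 rose by 0.51 ± 0.12. Against eWAT the counts were 4 higher and 2 lower for the partners and 1 higher and 5 lower for the repressors. The shares of all genes there were 24.4% higher and 30.2% lower. On plain library totals 2 partners were higher and 10 lower against either white depot, and 0 repressors were higher and 10 and 9 lower. On that scale 68.4% and 70.3% of all genes were lower against iWAT and eWAT, and 7.68% and 8.43% were higher. The rises of Ctbp1 and Rb1 thus hold only relative to the median gene.

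Relatives of the members moved in both directions. Of 16, 3 rose in iBAT over iWAT, 7 fell and 6 did not pass, beside 24% of all genes called higher and 30.3% called lower. The log2 fold change was -2.34 ± 0.30 for Irf7, -3.27 ± 0.54 for Irf5 and -3.51 ± 0.61 for Irf8, interferon regulatory factors of immune cells, and the macrophage marker sums were 51.3 to 133 CPM in iBAT against 232 to 1440 CPM in iWAT. The part of immune cells in these values was not tested. Esrrb, the remaining oestrogen-related receptor, rose by 2.88 ± 0.51 but averaged only 1.59 CPM in iBAT. Ebf3 rose by 0.67 ± 0.22 and Pparg, the general adipocyte regulator, by 0.80 ± 0.27. In iWAT over eWAT 3 relatives rose and none fell, beside 5.7% of all genes called higher and 4.5% called lower. On plain library totals 1 rose and 12 fell over iWAT, where 7.68% of all genes rose and 68.4% fell. The rises of Ebf3 and Pparg over iWAT thus hold only relative to the median gene too. Over eWAT 2 rose and 13 fell on plain totals, where 8.43% of all genes rose and 70.3% fell.

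The genes most like each member were found from the log2 CPM profile over the 18 libraries, centred on its mean, as those with the smallest root mean square difference. The profiles hold differences between depots and between libraries of a depot, and the measure is a description only. Esrra had the closest neighbours, Cox10 at 0.15 and Mrps2 at 0.16 log2 units. For Esrra 608 genes lay within 0.5, against 3599 for Ebf2 and 3453 for Zfp516. The measure is not scaled, and the SD of the profile was 1.12 for Esrra, 0.523 for Ebf2 and 0.462 for Zfp516. Genes that vary little therefore lie near Ebf2 and Zfp516 by construction. Prdm16 was nearest to Mme (0.35) and Optn (0.37), Ebf2 to Cog4 (0.20) and Fn3krp (0.22), Zfp516 to Slc30a4 and Arfgap1 (both 0.18), and Ppargc1b to Acadvl (0.37) and Impa2 (0.37). No gene came within 0.5 of Ppargc1a, Ppara, Esrrg or Irf4, whose nearest genes were Etfdh (0.61) and Impa2 (0.61), Tmem79 (0.55) and Plin5 (0.56), Cxadr (0.65) and Nrtn (0.73), and Sh2d4a (0.57) and Gngt2 (0.66). Among the members themselves the closest pairs were Prdm16 with Esrra at 0.69 and Ppargc1a with Ppargc1b at 0.72, and the farthest was Ppara with Zfp516 at 2.68.

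Loss of Gm15551 was the question the mice were made for, and it left the 9 regulators without a called difference. Gm15551 itself had 1.95 to 11.7 CPM in the wt libraries and 0 to 0.0971 CPM in the ko libraries, with at most 4 counts. No member passed the test in iBAT (0% of all genes called), iWAT (0%), eWAT (0.00534%, which is Gm15551) or across depots (0.00534%, again Gm15551), and none did with DESeq2. Gm15551 itself missed the threshold in iBAT (40 to 68 counts in wt and 0 in ko, adjusted p = 0.191) and in iWAT (adjusted p = 0.0551), so a lack of calls within a depot does not show a lack of difference. None passed the joint test of genotype by depot either (0% of all genes). At an unadjusted p under 0.05, 1 member stood out in iBAT and across depots, none in iWAT, eWAT or the joint test, and it was Irf4 both times, beside 238 and 411 of all 18728 genes. Its log2 fold change in ko over wt was 1.18 ± 0.49 in iBAT (adjusted p = 1) and 0.65 ± 0.29 across depots (adjusted p = 0.9999). The test across depots counts the 3 libraries of a mouse as independent, and with counts summed per mouse Irf4 was 0.66 (adjusted p = 1). In iBAT 2 of the 3 ko libraries (61.8 and 56.1 CPM) lay above all wt libraries (16.3 to 26.4 CPM), and ko 1 lay among them at 21.2 CPM.

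The other members had log2 fold changes in ko over wt from -0.18 to 0.62 in iBAT, and all 9 from -0.25 to 0.92 in iWAT and from -0.47 to 0.46 in eWAT. The standard errors were 0.22 to 0.97, smallest for Esrra and largest for Esrrg, with 3 mice against 3. For Esrra, the mean level was 303.6 ± 51.1 CPM in wt and 281.8 ± 37.9 CPM in ko (SD, n = 3 each) in iBAT, a log2 fold change of -0.11 ± 0.22. For Ppargc1a in iBAT, 76.2 ± 53.0 CPM in wt and 117.6 ± 134 CPM in ko, the spread between mice of 1 genotype was larger than the difference between genotypes. No tested gene of the 7 lists was called in a genotype comparison within or across depots.

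**Figure D5:**
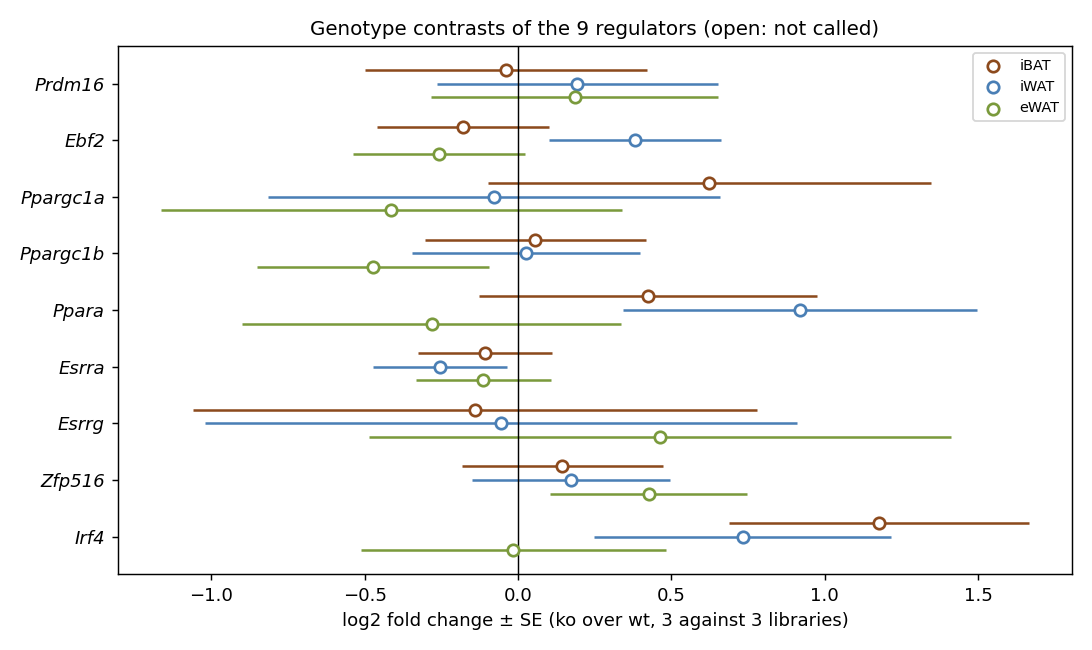
Log2 fold changes with standard errors of the 9 regulators in ko over wt within each depot, 3 libraries against 3, none of them called. Irf4 in iBAT had the largest value, 1.18, with a standard error of 0.49.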

How the data were processed

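PolyA RNA libraries of 3 depots from 3 wt and 3 ko mice were analysed, grouped by the library titles. The mouse identifiers in the labels tie the depots of each mouse together. The authors trimmed reads using cutadapt, and salmon estimated abundances from GENCODE M22 (GRCm38), alone or combined with RNAcentral. Which of these references, which strand setting and which summary to gene level were used is not given in the sources used here. The deposited values are estimated counts per gene, rounded to whole numbers and not normalised. Exons of Prdm16, Ebf2 and Esrra share 109, 424 and 73 bases with genes on the opposite strand, so some of their reads may not be assignable without strand.

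Genes with low counts were dropped by filterByExpr, libraries were scaled with TMM, and edgeR 4.0.16 in R 4.3.3 fitted quasi-likelihood models. Depot contrasts and the effect of ko across depots came from an additive model of depot and genotype, and within-depot genotype contrasts and the joint test from a model with 1 mean per group. Benjamini-Hochberg adjustment covered every tested gene, and calls needed an adjusted p under 0.05. The standard error was taken as |log2 fold change|/√F. The pipeline was tested on simulated counts. No 2 libraries held identical counts. Positions and exon lengths are from GENCODE M21 (GRCm38), promoter windows from RefSeq GRCm38.p6.

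The members and gene lists were chosen with earlier results of these data known. All 9 members are named. Of each list, the 3 with the lowest p-values for iBAT against iWAT are named, with up to 3 called against the majority, and for each member the 2 genes of nearest profile. The values of 1 list gene that this rule names are not reported here. Alternatives were DESeq2 1.42.0 and its size factors, no filter, 10 counts in every library, a replicate block, wild type libraries only, 1 depot only, counts summed per mouse and leaving out each library. Plain library totals and leaving out libraries rich in other tissues, or the iBAT replicate 1 libraries, were chosen after seeing the data. The reported depot contrasts used no block and counted the 3 libraries of a mouse as independent. In the alternative fit of depots the block is the mouse, since same-numbered libraries of a genotype came from 1 mouse. Their deviations from the group means correlated at -0.17 to 0.33 between depots.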

Additional observations from a re-analysis of the deposited data

Results flagged for a closer look

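Of 27 comparisons of the 6 libraries of a depot, 9 members in 3 depots, 2 held a library whose gap to the nearest other library relative to the whole range exceeded Dixon's 95% limit for 6 values. Chance flags about 1 in 20, here 1.35.

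Ebf2 was 17.97 CPM in iWAT wt 3, and the other iWAT libraries ran from 33.7 to 43.0 CPM. That library had the highest lymphocyte marker sum (1490 CPM) and the lowest adipocyte marker sum (7170 CPM) of the iWAT libraries. Zfp516 was 51.1 CPM in eWAT ko 3, and the other eWAT libraries ran from 16.6 to 23.7 CPM. That library had the highest epididymis marker sum (4820 CPM) and an adipocyte marker sum of 9363 CPM, the lowest of the eWAT libraries. The part of those tissues in both values was not tested. No member passed the joint test of whether the effect of ko differed between depots (edgeR, adjusted p = 1, no member at an unadjusted p under 0.05).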

How the results depend on the processing

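For the counts of members called, DESeq2 size factors, no filter, 10 counts in every library and DESeq2 kept every count within 1.5 times of the reported one. With 10 counts in every library 8 members were tested, without Esrrg, and the 7 called for iBAT against iWAT included Zfp516 as lower. The lowest and highest counts over the 18 fits without 1 library were 6 and 8 for iBAT against iWAT, 9 throughout for iBAT against eWAT, 1 and 3 for iWAT against eWAT, and 0 throughout for every genotype comparison and the joint test. Wild type libraries alone gave 7, 8 and 0 members for these 3 depot comparisons, where for iBAT against iWAT Prdm16 was lost and Zfp516 was called lower (-0.46), and for iBAT against eWAT Ebf2 was lost. With the replicate block, the mouse for depots and the replicate number for genotypes, the counts were 7, 9 and 2 and again 0 for genotype. Over all genes, ko against wt gave 0, 0, 1 and 1 calls in iBAT, iWAT, eWAT and across depots, against 13, 4, 10 and 4 with DESeq2, and 0, 0, 0 and 3 with the replicate block. With counts summed per mouse, 0 genes were called across depots. The wt and ko libraries of 1 number correlated at -0.47 to 0.55, over 0.1 in 4 of 9 pairs, so the numbers were not taken to pair the genotypes, although both replicate 1 mice were the highest for Prdm16, Ppargc1a, Ppara and Esrra in iBAT and for Prdm16 in iWAT and eWAT. Some directions turned. Plain library totals gave -0.15 for Irf4 in iBAT over iWAT and -0.0577 for Ebf2 in iBAT over eWAT. In iWAT over eWAT, Ebf2 was 0.13 without the iWAT libraries richest in lymphocyte markers and ran from -0.16 to 0.11 without 1 library. Without the eWAT libraries richest in epididymis markers, Esrrg was 0.54 and Zfp516 0.0068, and without all 5 libraries rich in other tissues Esrrg was 1.08. The cause was not tested. Irf4 in ko over wt ran from 0.91 to 1.52 in iBAT and from 0.53 to 0.81 across depots without 1 library, never called. Low counts limit Esrrg in white fat, and 3 mice per genotype limit every comparison of genotypes.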
